A study of Homo sapiens and Mus musculus with 18 samples.

Results

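The retinoblastoma checkpoint of the G1 phase was followed through 10 genes in human and mouse stem cells and in the gastruloids grown from them. The genes were listed by name, with earlier results of these data known, and no measured value enters the list: the D-type cyclins CCND1, CCND2 and CCND3, the E-type cyclins CCNE1 and CCNE2, the kinase CDK6, the inhibitors CDKN1A, CDKN1B and CDKN2C, and the retinoblastoma gene RB1, with the mouse genes of the same names. These were 10 of the 44910 genes in the human table and 10 of the 29720 genes in the mouse table. All 10 passed the filter on low counts in both species.

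Cells leave G1 when cyclin-dependent kinases phosphorylate the retinoblastoma protein, which otherwise holds E2F transcription factors in check. D-type cyclins activate CDK4 and CDK6, and E-type cyclins activate CDK2. The inhibitors act at different points, since p18 (CDKN2C) binds CDK4 and CDK6 alone while p21 (CDKN1A) and p27 (CDKN1B) bind cyclin and kinase complexes. Pluripotent stem cells are known for a short G1 phase, which lengthens as they differentiate.

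The study profiled embryonic stem cells (ESCs) and gastruloids, which are aggregates of ESCs that elongate and pattern themselves along an axis, at matched stages in 2 species. Each of 9 groups was sequenced for RNA in 2 biological replicates, 18 samples in all. The replicates of a stage were collected together, so p-values measure the spread between such replicates and not between experiments run at other times. Human naive H9 ESCs were chemically reset and kept in PXGL medium, which holds the MEK inhibitor PD0325901, the tankyrase inhibitor XAV939, a PKC inhibitor and LIF, on irradiated mouse embryonic fibroblasts that were removed by passaging. Primed H9 and primed RUES2-GLR ESCs, the latter a reporter line, were grown in StemFlex on Geltrex. Early (24 h) and late (120 h) RA-gastruloids were made from RUES2-GLR ESCs pretreated with the GSK3 inhibitor CHIR99021 and retinoic acid (RA). The cells were then aggregated with CHIR99021. RA with Matrigel was given only after the early stage had been sampled, so it reached the late RA-gastruloids alone. All mouse samples came from the E14 line (E14Tg2a). Mouse naive ESCs were kept in 2i/LIF (CHIR99021, PD0325901 and LIF), and epiblast-like cells (EpiLCs), the primed state, were made from them with Activin A, bFGF and serum replacement. Mouse early (72 h) and late gastruloids, the latter sampled 72 h after the early ones, were grown from naive ESCs with a pulse of CHIR99021 and without RA, so EpiLCs are a stage for comparison and not the cells from which the gastruloids came. Late RA-gastruloids therefore differ from early ones in culture time and in their medium, and the naive and primed states differ in inhibitors as well as in state.

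Levels are given as CPM, counts relative to library size after TMM scaling, which serves to compare a gene between samples of a species, and as TPM, transcript abundances that also divide by gene length and serve to compare genes within a sample. A gene was called higher or lower between groups when its adjusted p in edgeR's quasi-likelihood test was under 0.05 over all tested genes and its absolute log2 fold change was above 1. These are bulk samples, in which fewer cells of a type and less RNA per cell cannot be told apart. Comparisons that start from the same group share its 2 samples.

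Total counts ran from 3681739 to 38771193 in the human libraries and from 6487157 to 20052505 in the mouse libraries, and the shallowest was primed RUES2-GLR replicate 2. Both primed RUES2-GLR libraries stood apart: genes of the mitochondrial genome took 21.4% and 22.4% of their counts, against 2.68% to 6.71% in the other 8 human libraries and 1.64% to 3.65% in the mouse libraries. Every comparison that starts or ends at primed RUES2-GLR ESCs carries this difference, and calls that change when mitochondrial genes are left out are named beside the result. Naive, streak and somite markers followed the stage labels, and neural and cardiac markers did so in part. Naive pluripotency markers summed to 4776 to 5069.8 CPM in naive H9 ESCs and 110.4 to 116 in primed H9 ESCs. In mouse they summed to 5567 to 5658 in naive ESCs, 849.6 to 859 in EpiLCs and 2737 to 2758 in early gastruloids. Primitive streak and caudal markers summed to 2642 to 2746 CPM in early RA-gastruloids and at most 191 in late ones, and somite markers to 449 to 497 in late RA-gastruloids. Neural markers, a list with SOX2, summed to 1293 to 1311 CPM in primed RUES2-GLR ESCs, 127 to 132 in early and 534 to 537 in late RA-gastruloids. In mouse they summed to 1283 to 1286 in naive ESCs and 107 to 120 in late gastruloids. Cardiac and endothelial markers summed to 109 to 112 CPM in primed RUES2-GLR ESCs and 49.8 to 60.4 in late RA-gastruloids. In mouse they summed to 130 to 131 in naive ESCs and 681 to 696 in late gastruloids. Fibroblast markers, listed because of the feeders, summed to 802 to 822 CPM in naive H9 and 926 to 962 in primed H9 ESCs. From naive to primed H9 ESCs 4 of these 10 fell and 3 rose, where 22.3% of all tested genes were called lower and 25.5% higher. Their median log2 fold change was -0.93 against 0.00 over all genes. All 10 had more than 3 counts in naive H9 ESCs, and 3 of 10 had 3 counts or fewer in primed H9 ESCs.

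**Figure D1:**
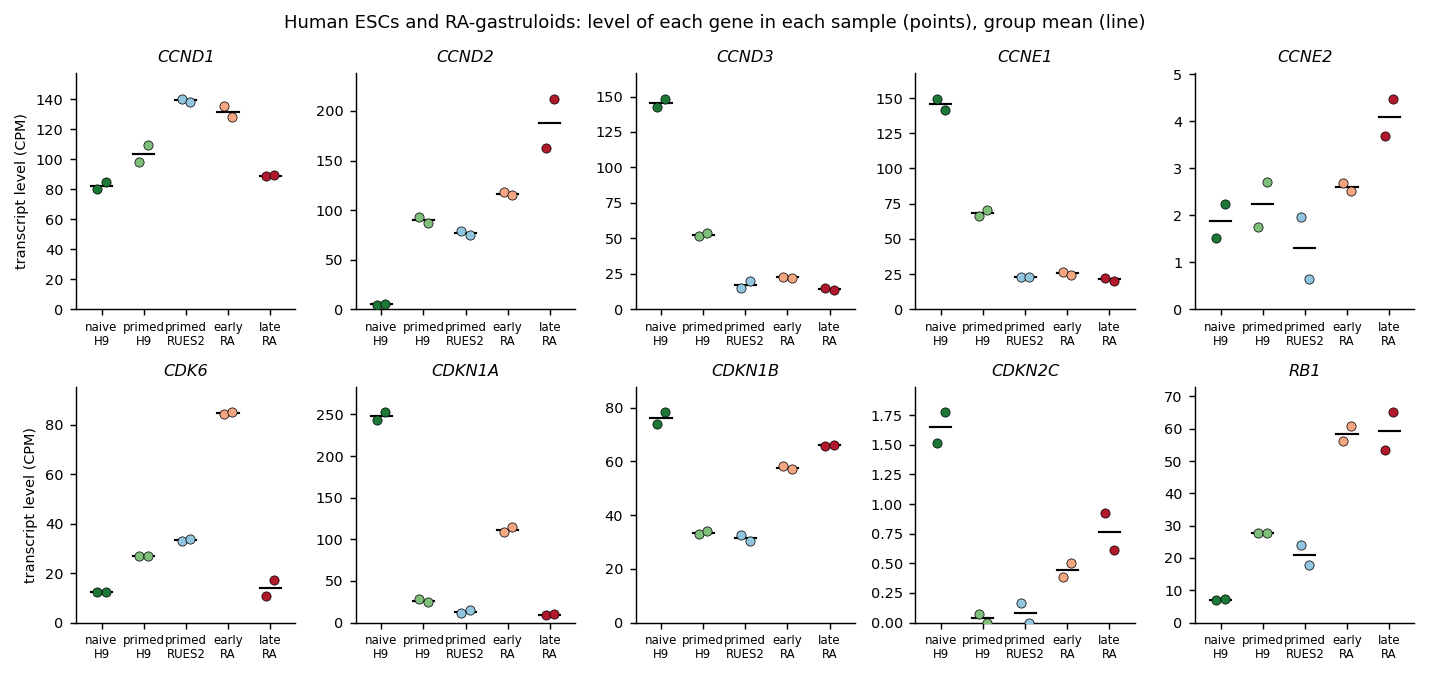
Level of the 10 genes in CPM (vertical axes, from 0) in each human sample (points, 2 per group) with the group mean (lines). CCND2 was lowest in naive H9 ESCs, at 4.39 and 5.22 CPM, and CDKN1A was high in naive H9 ESCs and early RA-gastruloids and low in the other 3 groups.

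**Figure D2:**
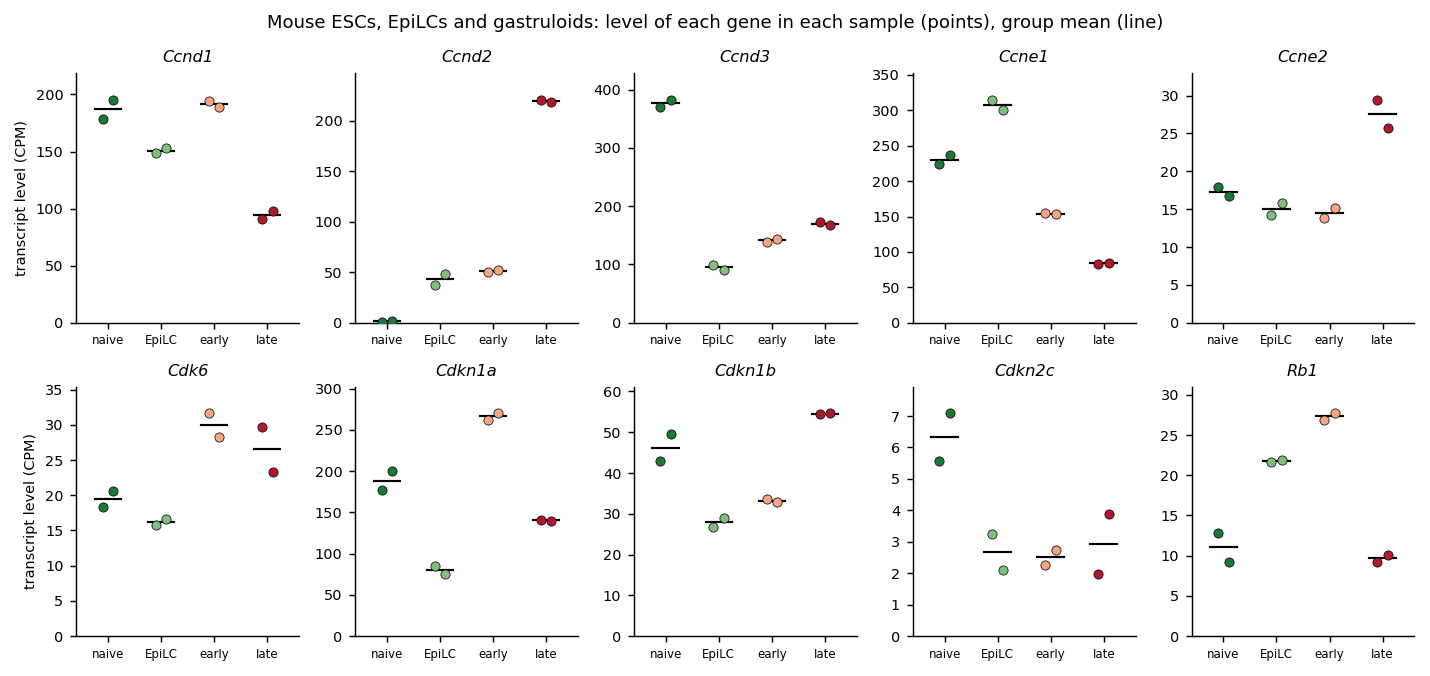
Level of the 10 mouse genes in CPM (vertical axes, from 0) in each mouse sample (points, 2 per group) with the group mean (lines). Ccnd2 was lowest in naive ESCs and highest in late gastruloids, at 221 and 218 CPM, and Cdkn1a was highest in early gastruloids.

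The step from naive to primed pluripotency moved most of the set in human cells. From naive to primed H9 ESCs, CCND2, CDK6 and RB1 rose and CCND3, CCNE1, CDKN1A, CDKN1B and CDKN2C fell, which is 8 of 10 called where 47.8% of all tested genes were called (25.5% higher and 22.3% lower). The median log2 fold change of the 10 genes was -0.38, against 0.00 over all genes. From mouse naive ESCs to EpiLCs, Ccnd2 and Rb1 rose and Ccnd3, Cdkn1a and Cdkn2c fell, 5 of 10 where 29.8% of all tested genes were called (17.7% higher and 12.1% lower), with a median of -0.29 against 0.02 over all genes.

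Between the 2 primed human lines, none of the 10 genes was called higher and CCND3, CCNE1 and CDKN1A were lower in the RUES2-GLR line than in H9, 3 of 10 where 29.3% of all tested genes were called (17.1% higher and 12.2% lower). The median over all genes in this comparison was -0.12 and became 0.00 with DESeq2 size factors. Of the genes called, 58.4% were higher in RUES2-GLR, and 68.7% to 71.2% were under DESeq2 size factors, upper quartile scaling, a fit of the 2 groups alone, DESeq2 and without mitochondrial genes. CDKN1A lost its call under each of these, at log2 fold changes from -0.956 to -0.997, and without primed RUES2-GLR replicate 1 (-0.71), and the calls of CCND3 and CCNE1 remained. Line and mitochondrial share cannot be told apart here.

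Between primed RUES2-GLR ESCs and early RA-gastruloids, CDK6, CDKN1A and RB1 rose and none of the 10 fell, 3 of 10 where 29.6% of all tested genes were called (12% higher and 17.6% lower). From early to late RA-gastruloids CDK6 and CDKN1A fell and none rose, 2 of 10 where 24.9% were called (11.8% higher and 13.2% lower). Late RA-gastruloids against primed RUES2-GLR ESCs had higher CCND2, CCNE2, CDKN1B, CDKN2C and RB1 and lower CDK6, 6 of 10 where 38.3% were called (17.3% higher and 21% lower). CDKN1B lost its call without mitochondrial genes, at a log2 fold change of 0.96, and under DESeq2, other scalings and a fit of the compared groups alone. Its call was also lost without either naive H9 replicate (0.97 in each), samples outside this comparison. CDKN2C lost its call under DESeq2 (adjusted p = 0.0915). CCNE2, CDKN1B and CDKN2C lost theirs without primed RUES2-GLR replicate 2, which left 3 of 10 called, CDKN2C without primed RUES2-GLR replicate 1, and CDK6 and CDKN2C lost theirs without late RA-gastruloid replicate 1, which left 4 of 10. CCND2 and RB1 were called under every alternative run.

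In mouse, Cdkn1a rose from EpiLCs to early gastruloids and none fell, 1 of 10 where 20.9% of all tested genes were called (11.7% higher and 9.24% lower). Against the naive ESCs from which they grew, early gastruloids had higher Ccnd2 and Rb1 and lower Ccnd3 and Cdkn2c, 4 of 10 where 23% were called (16.2% higher and 6.81% lower). From early to late gastruloids Ccnd2 rose and Ccnd1 and Rb1 fell, 3 of 10 where 39.2% were called (20.1% higher and 19.1% lower). Against naive ESCs, late gastruloids had higher Ccnd2 and lower Ccnd3, Ccne1 and Cdkn2c, 4 of 10 where 44.8% were called (25.6% higher and 19.2% lower).

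Many smaller differences also passed the adjusted p threshold without the fold threshold. On that rule 9 of 10 members passed from naive to primed H9 ESCs, against 75.3% of all genes, 5 between the primed lines (58.5%), 6 between primed RUES2-GLR ESCs and early RA-gastruloids (55.8%), 5 from there to late RA-gastruloids (52%) and 7 between primed RUES2-GLR ESCs and late RA-gastruloids (63.6%). In mouse 8 passed from naive ESCs to EpiLCs (66%), 8 from EpiLCs to early gastruloids (62.7%), 8 from early to late (76.1%), 8 from naive ESCs to early gastruloids (63%) and 9 from naive ESCs to late gastruloids (78.5%).

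CCND2, a D-type cyclin, had the steepest rise of the set in both species. In human it stood at 4.39 and 5.22 CPM in naive H9 ESCs, 93.3 and 86.7 in the primed H9 samples, 79.2 and 75.2 in primed RUES2-GLR ESCs, 118 and 115 in early RA-gastruloids and 162 and 213 in late ones. In mouse naive ESCs, Ccnd2 stood at 0.837 and 2.06 CPM, from 6 and 23 counts. It stood at 37.8 and 48.0 CPM in EpiLCs, 49.8 and 52.7 in early and 221 and 218 in late gastruloids. No sample of the naive state reached the level of any other sample of its species, and late gastruloids were above all others. The rise from naive to primed was 18.7-fold in H9 ESCs (log2 fold change 4.23 ± 0.15 SE, adjusted p = 2.48e-21) and 27.7-fold in mouse (log2 fold change 4.79 ± 0.18 SE, adjusted p = 1.74e-31). Between the early and late stages, Ccnd2 rose 4.30-fold in mouse (log2 fold change 2.10 ± 0.07 SE, adjusted p = 6.35e-33), while the log2 difference of CCND2 in human was 0.68 (adjusted p = 1.21e-05) and did not pass the fold threshold. The species differed in this step by -1.26 ± 0.17 SE, adjusted p = 5.58e-08 (log2, human minus mouse). The rise from naive to primed was not shown to differ (-0.66 ± 0.36 SE, adjusted p = 0.107), although in a fit without mouse naive replicate 2 the difference was -1.60 and was called.

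CCND3, another D-type cyclin, ran the other way. It stood at 142 and 149 CPM in naive H9 ESCs, 51.3 and 53.9 in the primed H9 samples, 15.1 and 19.8 in primed RUES2-GLR ESCs, 22.8 and 22.1 in early RA-gastruloids and 15.3 and 13.5 in late ones. Mouse Ccnd3 stood at 371 and 382 CPM in naive ESCs, 98.8 and 91.1 in EpiLCs, 138 and 144.4 in early and 172 and 168 in late gastruloids. Naive samples were highest in both species and did not overlap any other group. CCND3 fell 2.76-fold from naive to primed H9 ESCs (log2 fold change -1.46 ± 0.11 SE, adjusted p = 5.38e-13) and was 3.19-fold lower again in RUES2-GLR (log2 fold change -1.67 ± 0.14 SE, adjusted p = 1.4e-11). Ccnd3 fell 3.99-fold from naive ESCs to EpiLCs (log2 fold change -2.00 ± 0.06 SE, adjusted p = 4.25e-36) and was 2.21-fold lower in late gastruloids than in naive ESCs (log2 fold change -1.15 ± 0.06 SE, adjusted p = 1.3e-25). The species difference did not pass the threshold of size in any of the 4 matched steps. From starting ESCs to late it was 0.97 ± 0.16 SE, adjusted p = 1.82e-06, and it was called without mitochondrial genes, at 1.04.

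CCND1 is the D-type cyclin best known as a target of growth factor and WNT signalling, and it was called in 1 of the 10 comparisons. Its human levels were 80.0 and 84.9 CPM in naive H9 ESCs, 98.0 and 109.6 in the primed H9 samples, 141 and 139 in primed RUES2-GLR ESCs, 135 and 128 in early RA-gastruloids and 88.9 and 89.5 in late ones. Its mouse levels were 179 and 195 CPM in naive ESCs, 148 and 153 in EpiLCs, 194 and 189 in early and 90.8 and 98.3 in late gastruloids. Late gastruloids had the lowest Ccnd1 of the mouse groups, and naive H9 ESCs had the lowest CCND1 of the human groups. Ccnd1 fell 2.03-fold from early to late in mouse (log2 fold change -1.02 ± 0.06 SE, adjusted p = 2.01e-21), a call lost with DESeq2 and with its size factors (-0.97 in each) and without late replicate 1 (-0.96). From naive ESCs to late gastruloids the log2 difference of Ccnd1 was -0.99 (adjusted p = 2e-20), just under the fold threshold. It was called without the filter on low counts (-1.04). The naive to primed log2 difference was 0.34 in human (adjusted p = 0.00482) and -0.31 in mouse (adjusted p = 1.12e-05), neither past the fold threshold. On the TPM scale, CCND1 was lower in primed RUES2-GLR ESCs (63.1 ± 2.29 SD) than in early RA-gastruloids (108 ± 3.76 SD). Mitochondrial transcripts took 53.2% and 54.2% of the TPM of the primed RUES2-GLR libraries. In edgeR's test on counts these 2 groups were not shown to differ (log2 fold change -0.083, adjusted p = 0.538). The 250 bases before the canonical start of members were searched on both strands for the E2F motifs TTTCGCGC, TTTGGCGC, TTTCCCGC and TTTGCCGC, the GC box GGGCGG, the TATA box TATAAA, the TCF/LEF motifs CTTTGAA and CTTTGAT and the E-box CACGTG. The window of human CCND1 held an E2F match (TTTGGCGC) and a TCF/LEF match (CTTTGAT), and that of mouse Ccnd1 held neither. A TCF/LEF match lay before 1 of the 10 human members, and before 4.63% of human and 7.54% of mouse protein-coding genes.

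Together these changes turned over the make-up of the D-type cyclin transcripts, measured per length within each sample. CCND3 gave 58.5% ± 0.354 (SD, n = 2) of the D-type TPM in naive H9 ESCs and 21.6% ± 0.00742 in primed H9 ESCs, while CCND2 went from 1.39% ± 0.119 to 26.7% ± 2.31. CCND1 was the largest share in primed RUES2-GLR ESCs (69.8% ± 0.583) and early RA-gastruloids (60.0% ± 0.445), and CCND2 in late RA-gastruloids (52.3% ± 4.89, against 42.1% ± 3.85 for CCND1). The leading D-type cyclin was the same in mouse as in human at each stage, by a narrower margin in late mouse gastruloids. Ccnd3 stayed above Ccnd2 in EpiLCs (22.8% ± 1.70 against 9.61% ± 1.43) and early gastruloids (25.9% ± 0.880 against 8.76% ± 0.360), where in human CCND2 was above CCND3. Ccnd3 gave 51.9% ± 1.06 in naive ESCs, Ccnd1 67.5% ± 0.267 in EpiLCs and 65.4% ± 1.24 in early gastruloids. In late mouse gastruloids the 3 shares lay close together, at 31.97% ± 1.47 for Ccnd1, 37.2% ± 0.611 for Ccnd2 and 30.9% ± 0.859 for Ccnd3.

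**Figure D3:**
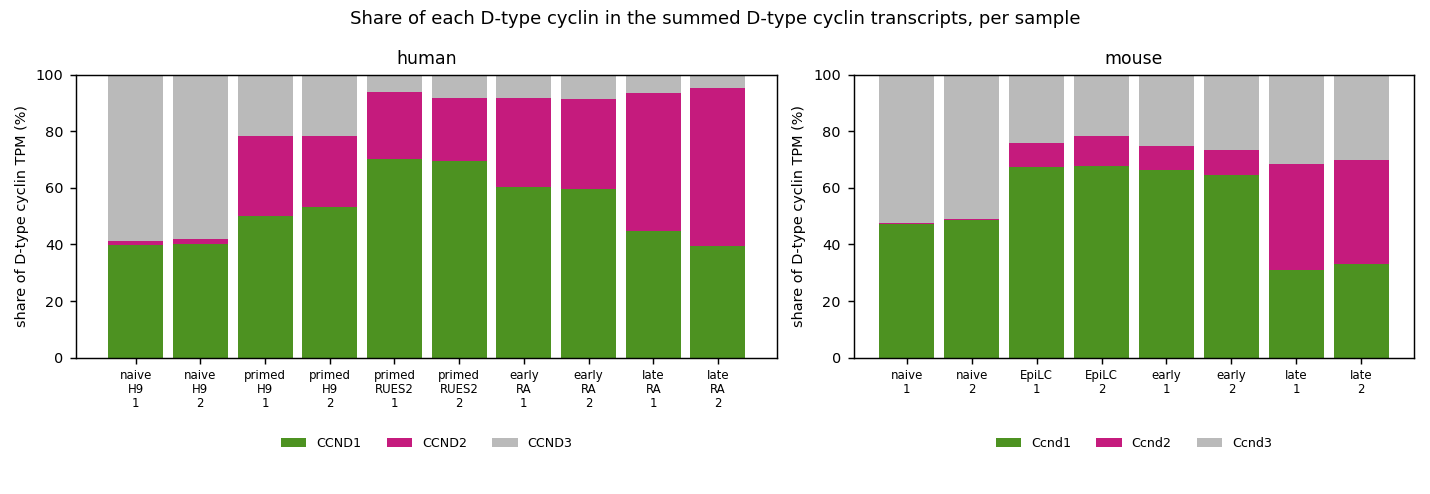
Share of each D-type cyclin in the summed D-type cyclin TPM (vertical axis, percent) for each sample (1 bar each, replicate number below), human left and mouse right. The CCND2 share was 1.39% in naive H9 ESCs and 52.3% in late RA-gastruloids, and the Ccnd2 share was 0.184% in mouse naive ESCs and 37.2% in late gastruloids.

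CCNE1, which activates CDK2 at the entry to S phase, changed in human ESCs and hardly thereafter. It stood at 149.7 and 142 CPM in naive H9 ESCs, 66.1 and 70.6 in the primed H9 samples, 22.8 and 23.3 in primed RUES2-GLR ESCs, 26.6 and 24.3 in early RA-gastruloids and 22.4 and 19.9 in late ones. In mouse, Ccne1 stood at 224 and 236 CPM in naive ESCs, 315 and 301 in EpiLCs, 155 and 153 in early and 82.7 and 85.03 in late gastruloids. The highest human group was the naive state, and the highest mouse group was the primed state. CCNE1 fell 2.13-fold from naive to primed H9 ESCs (log2 fold change -1.09 ± 0.11 SE, adjusted p = 1.59e-10) and was 2.98-fold lower in RUES2-GLR than in H9 primed ESCs (log2 fold change -1.58 ± 0.13 SE, adjusted p = 7.32e-12). In mouse the naive to primed log2 difference was 0.41 (adjusted p = 3.21e-09) and did not pass the fold threshold, and late gastruloids were 2.75-fold below naive ESCs (log2 fold change -1.46 ± 0.06 SE, adjusted p = 8.38e-29). The species differed from naive to primed by -1.61 ± 0.12 SE, adjusted p = 2.39e-14, and from starting ESCs to late by 1.35 ± 0.15 SE, adjusted p = 4.27e-10. The EpiLC to early difference of Ccne1 lay at the threshold, with a log2 value of -0.99 that was not called and -1.02 with DESeq2, which was.

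CCNE2, the second E-type cyclin, was a small share of the E-type transcripts in human. Its levels were 1.52 and 2.24 CPM in naive H9 ESCs, 1.75 and 2.72 in the primed H9 samples, 1.97 and 0.637 in primed RUES2-GLR ESCs, 2.69 and 2.52 in early RA-gastruloids and 3.68 and 4.48 in late ones. Mouse Ccne2 was 17.9 and 16.7 CPM in naive ESCs, 14.2 and 15.8 in EpiLCs, 13.9 and 15.1 in early and 29.4 and 25.8 in late gastruloids. Late samples were highest in both species. CCNE2 rose 2.40-fold from primed RUES2-GLR ESCs to late RA-gastruloids (log2 fold change 1.26 ± 0.37 SE, adjusted p = 0.00331), where the 2 primed samples held 24 and 2 counts, and the call was lost without the shallower one (0.95). The early to late log2 difference of Ccne2 in mouse was 0.95 (adjusted p = 3.21e-10), just under the fold threshold. Of the E-type TPM, CCNE1 gave 99.3% ± 0.220 in naive H9 ESCs and 90.2% ± 1.97 in late RA-gastruloids, and Ccne1 gave 94.6% ± 0.445 in mouse naive ESCs and 80.0% ± 1.82 in late gastruloids. Exons of CCNE2 share 37.1% of their bases with another gene, chiefly INTS8, and default counting would drop reads that overlap both.

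CDK6, a kinase of the D-type cyclins, peaked in early RA-gastruloids. Human levels were 12.3 and 12.4 CPM in naive H9 ESCs, 26.9 and 26.9 in the primed H9 samples, 33.0 and 33.8 in primed RUES2-GLR ESCs, 84.6 and 85.3 in early RA-gastruloids and 10.7 and 17.0 in late ones. Mouse levels were 18.3 and 20.6 CPM in naive ESCs, 15.8 and 16.6 in EpiLCs, 31.7 and 28.3 in early and 29.8 and 23.4 in late gastruloids. Both early RA-gastruloid samples were above every other human sample, and in mouse the early and late samples overlapped. CDK6 rose 2.55-fold between primed RUES2-GLR ESCs and early RA-gastruloids (log2 fold change 1.35 ± 0.15 SE, adjusted p = 2.94e-09) and then fell 6.37-fold to the late stage (log2 fold change -2.67 ± 0.15 SE, adjusted p = 9.05e-16). Cdk6 was called in none of the 5 mouse comparisons, and its adjusted p was under 0.05 in 3 of them. The largest Cdk6 log2 difference was 0.89 from EpiLCs to early gastruloids (adjusted p = 6.45e-10). The species differed from naive to primed by 1.28 ± 0.22 SE, adjusted p = 5.16e-06, and from early to late by -2.36 ± 0.21 SE, adjusted p = 6.53e-12.

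The partners CDK4 and CDK2 were not members and are given for scale. CDK4, the other kinase of D-type cyclins, was above CDK6 per length in every group: 39.8 and 42.8 TPM in the primed RUES2-GLR samples, where CDK6 had 5.91 and 5.83 TPM, and 788 and 825 TPM in mouse naive ESCs, where Cdk6 had 4.36 and 4.77. CDK4 rose 3.01-fold between primed RUES2-GLR ESCs and early RA-gastruloids (log2 fold change 1.59 ± 0.12 SE, adjusted p = 9.15e-13), having been 2.14-fold lower in primed RUES2-GLR than in primed H9 ESCs (log2 fold change -1.10 ± 0.12 SE, adjusted p = 2.52e-09), and its early to late log2 difference was 0.17 (adjusted p = 0.19). The CDK4 difference between the primed lines was not called without mitochondrial genes (-0.95), with DESeq2 size factors, upper quartile scaling, the compared groups alone or DESeq2 (-0.91 to -0.95), or without primed RUES2-GLR replicate 1 (-0.87) or either naive H9 replicate (-0.97 in each). In mouse Cdk4 was called in none of the 5 comparisons, with log2 differences from -0.42 to 0.87. CDK2 was called in none of the 10 comparisons, with log2 differences from -0.83 to 0.68, and its adjusted p was under 0.05 in 6 of them.

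CDKN1A encodes p21, an inhibitor of cyclin and CDK complexes and a classic target of p53, and it fell, rose and fell again across the human stages. It stood at 243 and 253 CPM in naive H9 ESCs, 27.8 and 25.1 in the primed H9 samples, 10.9 and 14.7 in primed RUES2-GLR ESCs, 109 and 114 in early RA-gastruloids and 8.82 and 9.89 in late ones. The mouse gene stood at 177 and 200.1 CPM in naive ESCs, 85.2 and 74.9 in EpiLCs, 262 and 270.1 in early and 141 and 139.5 in late gastruloids. The same 2 stages, naive and early, were highest in both species, with naive above early in human and early above naive in mouse. CDKN1A fell 9.44-fold from naive to primed H9 ESCs (log2 fold change -3.24 ± 0.12 SE, adjusted p = 6.08e-21), rose 9.32-fold between primed RUES2-GLR ESCs and early RA-gastruloids (log2 fold change 3.22 ± 0.15 SE, adjusted p = 4.56e-18) and fell 12.1-fold to the late stage (log2 fold change -3.59 ± 0.14 SE, adjusted p = 5.16e-20). Cdkn1a fell 2.39-fold from naive ESCs to EpiLCs (log2 fold change -1.26 ± 0.07 SE, adjusted p = 3.01e-24), was 3.36-fold higher in early gastruloids than in EpiLCs (log2 fold change 1.75 ± 0.06 SE, adjusted p = 2.51e-31), and its early to late log2 difference was -0.92 (adjusted p = 5.49e-20), just under the fold threshold. The human swing was the larger in each of these steps. In the joint fit of both species, the species differed by -2.10 ± 0.14 SE, adjusted p = 1.57e-15 from naive to primed. They differed by 1.38 ± 0.17 SE, adjusted p = 1.22e-08 from primed to early, and by -2.53 ± 0.16 SE, adjusted p = 2.97e-16 from early to late. The joint fit put the early to late log2 fold change of Cdkn1a at -1.05. Both early RA-gastruloid samples were also above both primed H9 samples, a comparison that was not tested and in which line and stage both differ. The cause of the rise was not tested.

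Sequence upstream of CDKN1A is shown because of this swing. The p53 response element, of 20 bases in 2 adjoining decamers, was searched in the 3000 bases before each start with up to 2 mismatches outside the core C and G of each decamer. The limit was raised from 1 to 2 mismatches after a first search had found the mouse element alone. It was matched 2265 bases before the canonical start of human CDKN1A, at chr6:36676449-36676468 of GRCh38, and 2836 bases before that of mouse Cdkn1a, at chr17:29309902-29309921 of GRCm39, both on the plus strand. Windows of the same length held a match in 2.39% of human and 3.12% of mouse protein-coding genes. Capitals mark the element.
CDKN1A element: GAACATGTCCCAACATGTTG
Cdkn1a element: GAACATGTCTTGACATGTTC
The 250 bases before the same starts, at chr6:36678464-36678713 of GRCh38 and chr17:29312488-29312737 of GRCm39 on the plus strand, held 4 and 2 GC boxes (GGGCGG, either strand), in capitals below, and no other motif searched. A GC box was present before 9 of the 10 human and 7 of the 10 mouse members, and before 59.0% of human and 36.3% of mouse protein-coding genes.
CDKN1A: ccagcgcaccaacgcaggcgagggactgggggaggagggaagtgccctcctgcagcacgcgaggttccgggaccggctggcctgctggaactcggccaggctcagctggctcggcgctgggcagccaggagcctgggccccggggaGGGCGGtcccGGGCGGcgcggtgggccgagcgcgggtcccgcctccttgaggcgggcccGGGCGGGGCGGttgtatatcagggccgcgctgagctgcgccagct
Cdkn1a: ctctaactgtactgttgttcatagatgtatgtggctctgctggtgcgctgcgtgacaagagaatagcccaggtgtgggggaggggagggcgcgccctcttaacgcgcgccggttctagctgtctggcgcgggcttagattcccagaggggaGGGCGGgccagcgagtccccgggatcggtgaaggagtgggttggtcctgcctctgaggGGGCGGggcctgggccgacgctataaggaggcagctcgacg

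Other targets of p53 were read beside CDKN1A from a list of 20 genes. From naive to primed H9 ESCs 14 of the 20 fell and CCNG1 alone rose, with a median log2 fold change of -1.92 against 0.00 over all genes, where 25.5% of all tested genes were called higher and 22.3% lower. The largest fall was that of PHLDA3, an inhibitor of AKT signalling (from a mean of 409 to 33.4 CPM, log2 fold change -3.60 ± 0.14 SE, adjusted p = 2.61e-20). Between primed RUES2-GLR ESCs and early RA-gastruloids 7 of 20 rose and 1 fell, with a median of 0.51 against 0.08 over all genes, where 12% of all tested genes were called higher and 17.6% lower. BTG2, an antiproliferative factor, rose most (from a mean of 17.7 to 99.7 CPM, log2 fold change 2.46 ± 0.13 SE, adjusted p = 2.88e-16), and PMAIP1, which encodes the pro-apoptotic protein NOXA, was the gene that fell (from a mean of 107 to 7.78 CPM, log2 fold change -3.79 ± 0.15 SE, adjusted p = 6.01e-20). Between early and late RA-gastruloids 11 of 20 fell and TP53INP1 rose, with a median of -1.19 against 0.00 over all genes, where 11.8% of all tested genes were called higher and 13.2% lower.

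Mouse p53 targets followed Cdkn1a in some steps and not in others. From naive ESCs to EpiLCs, where Cdkn1a fell, 3 of 20 rose and 1 fell, with a median of 0.44 against 0.02 over all genes, where 17.7% of all tested genes were called higher and 12.1% lower. Pmaip1 rose most (from a mean of 33.9 to 236 CPM, log2 fold change 2.80 ± 0.07 SE, adjusted p = 8e-39), and Tigar, a regulator of glycolysis, was the gene that fell (from a mean of 159.6 to 60.0 CPM, log2 fold change -1.42 ± 0.07 SE, adjusted p = 9.43e-26). From EpiLCs to early gastruloids 4 of 20 rose and 3 fell, where 11.7% of all tested genes were called higher and 9.24% lower, with a median of 0.37 against 0.01 over all genes. Trp53inp1, a stress-induced cofactor of p53, rose 2.34-fold to 399 CPM. Between early and late gastruloids 8 of 20 fell and 1 rose, where 20.1% of all tested genes were called higher and 19.1% lower, with a median of -0.81 against -0.03 over all genes.

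**Figure D4:**
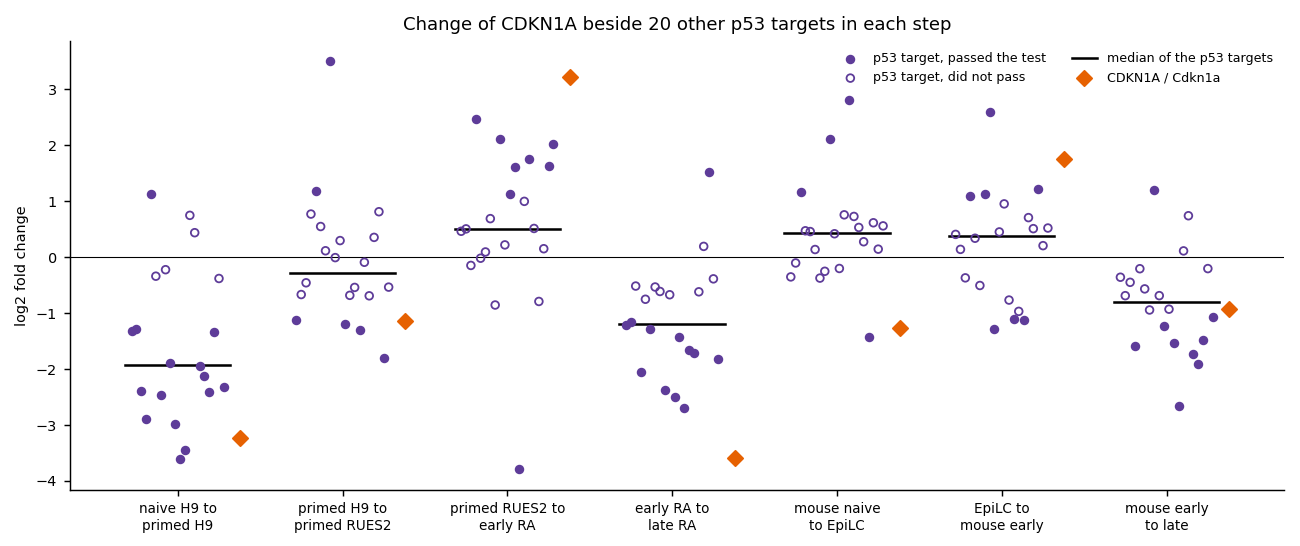
Log2 fold change (vertical axis) of 20 p53 targets (circles, filled where the test was passed), their median (line) and CDKN1A or Cdkn1a (diamond) in 7 comparisons of adjacent stages or lines. From naive to primed H9 ESCs CDKN1A changed by -3.24 and the median target by -1.92, and from mouse naive ESCs to EpiLCs Cdkn1a changed by -1.26 and the median target by 0.44.

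CDKN1B encodes p27, an inhibitor of cyclin E and CDK2 complexes. Its levels were 74.0 and 78.5 CPM in naive H9 ESCs, 32.8 and 34.1 in the primed H9 samples, 32.7 and 30.3 in primed RUES2-GLR ESCs, 58.1 and 57.1 in early RA-gastruloids and 65.8 and 66.0 in late ones. Mouse levels were 42.8 and 49.6 CPM in naive ESCs, 26.8 and 29.0 in EpiLCs, 33.7 and 32.8 in early and 54.5 and 54.7 in late gastruloids. In both species primed cells were lowest, and naive cells and late gastruloids were above them without overlap. CDKN1B fell 2.27-fold from naive to primed H9 ESCs (log2 fold change -1.19 ± 0.11 SE, adjusted p = 3.53e-11) and was 2.07-fold higher in late RA-gastruloids than in primed RUES2-GLR ESCs (log2 fold change 1.05 ± 0.12 SE, adjusted p = 8.62e-09), the latter at the fold threshold. No mouse comparison was called, with log2 differences from -0.73 to 0.71 and an adjusted p under 0.05 in all 5.

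CDKN2C encodes p18, an inhibitor of CDK4 and CDK6, and was close to the limit of detection in human. It had 29 and 31 counts in the naive H9 samples, 1 and 0 in primed H9, 2 and 0 in primed RUES2-GLR, 4 and 5 in early RA-gastruloids and 19 and 6 in late ones. With a floor of 3 counts per library, the level that a count of 0 still allows, CDKN2C was at least 11.7-fold lower in primed than in naive H9 ESCs (adjusted p = 1.03e-08), and at least 1.28-fold higher in late RA-gastruloids than in primed RUES2-GLR ESCs (adjusted p = 0.0144). The latter call was lost with DESeq2 (adjusted p = 0.0915) and without either primed RUES2-GLR replicate or late replicate 1. Mouse Cdkn2c was at 5.58 and 7.09 CPM in naive ESCs, 3.25 and 2.11 in EpiLCs, 2.27 and 2.73 in early and 1.98 and 3.87 in late gastruloids, with both naive samples above all others. It fell 2.59-fold from naive ESCs to EpiLCs (log2 fold change -1.37 ± 0.28 SE, adjusted p = 2.78e-05), a call lost without EpiLC replicate 2, and was 2.63-fold lower in early gastruloids than in naive ESCs (log2 fold change -1.39 ± 0.26 SE, adjusted p = 6.64e-06). The call in late gastruloids against naive ESCs (log2 fold change -1.19 ± 0.30 SE, adjusted p = 0.000328) was lost without naive replicate 2 (-0.99) and without late replicate 1 (-0.73).

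CDKN1C, the p57 inhibitor of the same family as p21 and p27, was not a member and moved in opposite directions in the 2 species from naive to primed. It went from 109 and 148 CPM in naive H9 ESCs to 14.3 and 15.8 in primed H9 ESCs (log2 fold change -3.08 ± 0.14 SE, adjusted p = 1.11e-18), while Cdkn1c went from 4.60 and 3.77 CPM in mouse naive ESCs to 41.7 and 40.1 in EpiLCs (log2 fold change 3.31 ± 0.14 SE, adjusted p = 7.73e-29). The difference between species was not tested for this gene. Between early and late stages it rose in both, 2.06-fold in human (log2 fold change 1.04 ± 0.14 SE, adjusted p = 1.66e-07, a call lost without late replicate 1 at 0.87) and 15.3-fold in mouse (log2 fold change 3.94 ± 0.09 SE, adjusted p = 9.28e-43).

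RB1, the substrate on which the pathway converges, rose on leaving the naive state in both species. It stood at 6.85 and 7.29 CPM in naive H9 ESCs, 27.7 and 27.8 in the primed H9 samples, 23.9 and 17.8 in primed RUES2-GLR ESCs, 56.1 and 60.9 in early RA-gastruloids and 53.5 and 65.2 in late ones. Mouse Rb1 stood at 12.8 and 9.24 CPM in naive ESCs, 21.6 and 21.8 in EpiLCs, 26.9 and 27.7 in early and 9.22 and 10.1 in late gastruloids. Late RA-gastruloids overlapped early ones, while late mouse gastruloids were below early ones and EpiLCs and close to naive ESCs. RB1 rose 3.93-fold from naive to primed H9 ESCs (log2 fold change 1.98 ± 0.15 SE, adjusted p = 2.44e-13) and 2.67-fold between primed RUES2-GLR ESCs and early RA-gastruloids (log2 fold change 1.42 ± 0.15 SE, adjusted p = 1.01e-09). Rb1 rose 2.03-fold from naive ESCs to EpiLCs (log2 fold change 1.02 ± 0.14 SE, adjusted p = 4.42e-09), a call lost without naive replicate 2 (0.76), and fell 2.83-fold from early to late gastruloids (log2 fold change -1.50 ± 0.14 SE, adjusted p = 1.13e-14). The species differed from early to late by 1.66 ± 0.20 SE, adjusted p = 9.59e-09. From primed to early the difference was not called (0.97 ± 0.20 SE, adjusted p = 7.33e-05), and without mitochondrial genes it was, at 1.05. Before the starts of both RB1 and Rb1 lay a match to the E2F motif TTTCCCGC, and 2 of the 10 members in each species held an E2F match, against 3.76% of human and 2.28% of mouse protein-coding genes.

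Across the 4 matched steps, the difference between species was called for 4 of 10 genes from naive to primed, where 42.1% of all matched genes were called, 2 of 10 from primed to early (32.6%), 4 of 10 from early to late (35.4%) and 5 of 10 from starting ESCs to late gastruloids (45.8%). The last step starts from primed cells in human and from naive cells in mouse, so species and starting state cannot be told apart in it. Media and protocol also differed between species in all 4 steps, so species and protocol cannot be told apart in any of them. From primed to early, the human gastruloids came from the line of the primed cells compared, while the mouse gastruloids did not come from EpiLCs. The values of CDKN2C in 2 of these calls rest on human libraries with 0 to 2 counts and give no size.

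**Figure D5:**
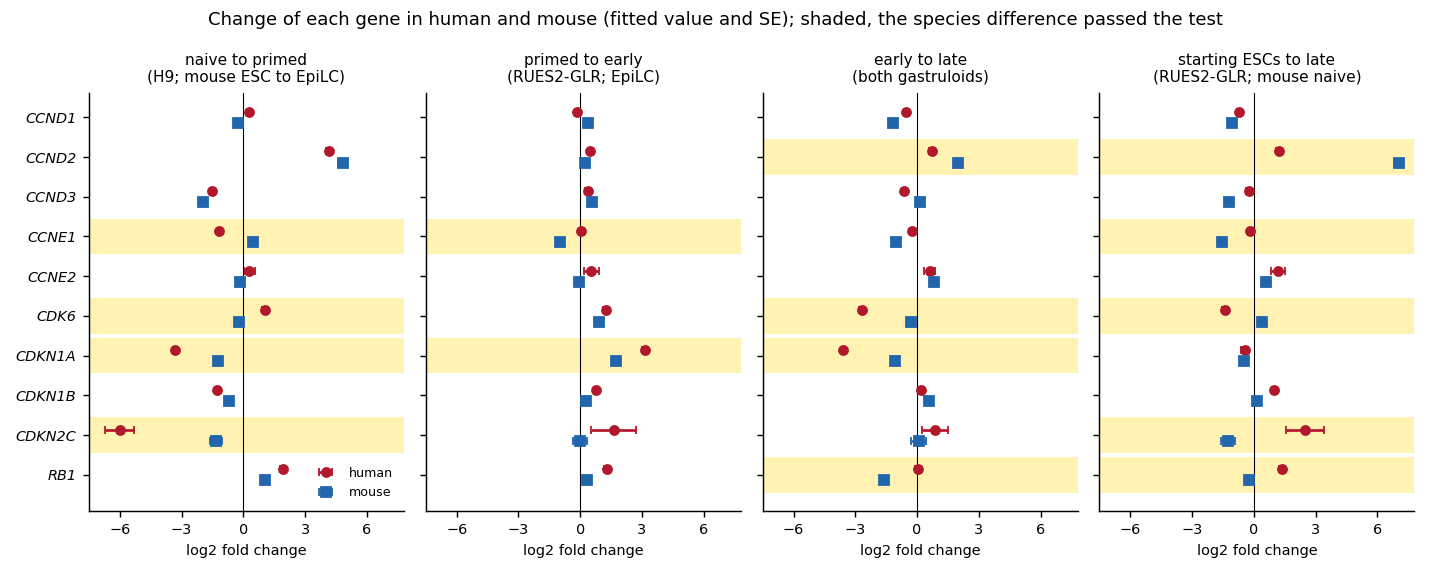
Log2 fold change (horizontal axes, with SE) of each gene in human (circles) and mouse (squares) in 4 matched steps, from 1 fit of all 18 samples; shading marks genes whose species difference passed the test. CDKN1A was shaded in the first 3 steps, with human minus mouse values of -2.10, 1.38 and -2.53.

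Read per length, the leading transcript of the set changed with stage. The lengths cover all exons of a gene and not the transcript present, so rankings between genes depend on them. CDKN1A was highest in naive H9 ESCs, at 254 ± 3.29 TPM (SD, n = 2), and CCNE1 next at 182 ± 9.57. CCNE1 led in primed H9 ESCs at 121 ± 4.78 TPM, CCND1 in primed RUES2-GLR ESCs at 63.1 ± 2.29, CDKN1A in early RA-gastruloids at 145 ± 5.36 and CCND2 in late RA-gastruloids at 94.3 ± 19.9. In late RA-gastruloids CCND2 and CCND1 (75.1 ± 2.02 TPM) were within about 1 SD of CCND2 of each other. In mouse Ccne1 led in naive ESCs at 284 ± 4.78 TPM and EpiLCs at 408 ± 9.95, and Cdkn1a led in early gastruloids at 261 ± 2.53 and late gastruloids at 142 ± 3.26. CDKN2C was lowest in the 2 primed human groups and in both stages of RA-gastruloids, CCNE2 in naive H9 ESCs at 1.31 ± 0.338 TPM, Ccnd2 in mouse naive ESCs at 0.503 ± 0.291, and Cdkn2c in the other 3 mouse groups.

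Genes around the pathway were counted from lists of the same kind in both species. Among 31 other regulators of the G1 to S transition, 3 rose and 5 fell from naive to primed H9 ESCs, with a median log2 fold change of -0.01 against 0.00 over all genes, where 25.5% of all tested genes were called higher and 22.3% lower. The largest rise was that of E2F5, a repressor E2F (from a mean of 6.83 to 39.1 CPM, log2 fold change 2.52 ± 0.14 SE, adjusted p = 1.07e-16). In mouse 2 of 31 rose and 1 fell in this step, where 29.8% of all tested genes were called, Cdkn1c most upwards and E2f2, an activator E2F, downwards (from a mean of 20.1 to 6.46 CPM, log2 fold change -1.59 ± 0.16 SE, adjusted p = 3.9e-13). Targets of E2F in S phase were mostly not called in this step: 2 of 23 rose and 1 fell in human, where 47.8% of all tested genes were called. None was called in mouse, where 29.8% of all tested genes were, and 17 of 23 had an adjusted p under 0.05 in edgeR's test, against 66% of all genes. Between primed RUES2-GLR ESCs and early RA-gastruloids 4 of 23 rose, where 12% of all tested genes did. From mouse naive ESCs to late gastruloids 7 of 23 fell, where 19.2% of all tested genes did, with a median of -0.57 against 0.02 over all genes, and Orc1, of the origin recognition complex, fell most (from a mean of 76.3 to 25.9 CPM, log2 fold change -1.57 ± 0.09 SE, adjusted p = 2.28e-22). Of 17 G2 and M phase genes, 4 rose and none fell from naive to primed H9 ESCs, a share near the 25.5% of all tested genes called higher. BUB1B, a spindle checkpoint kinase, had the largest of these rises (from a mean of 43.5 to 192 CPM, log2 fold change 2.14 ± 0.12 SE, adjusted p = 3.5e-16). None was called in mouse, where 8 had an adjusted p under 0.05, against 66% of all genes.

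Transcripts that report ERK signalling were counted because both naive media hold a MEK inhibitor. From naive to primed H9 ESCs 12 of 15 rose and FOSL1 alone fell, with a median log2 fold change of 2.39, where 25.5% of all tested genes were called higher and 22.3% lower. From mouse naive ESCs to EpiLCs 8 of the 14 tested rose and 1 fell, with a median of 1.15, where 17.7% of all tested genes were called higher and 12.1% lower. The ERK phosphatase DUSP6 rose most in both, 161-fold in human (from a mean of 1.46 to 239 CPM, log2 fold change 7.33 ± 0.17 SE, adjusted p = 8.29e-26) and 15.2-fold in mouse (to a mean of 277 CPM, log2 fold change 3.92 ± 0.08 SE). Over the same steps CCND1 and Ccnd1 were not called, as given above, and CCND2 and Ccnd2 rose. Between early and late RA-gastruloids 8 of 15 fell and 2 rose, where 11.8% of all tested genes were called higher and 13.2% lower. ETV4 fell most (from a mean of 97.4 to 4.39 CPM, log2 fold change -4.46 ± 0.14 SE, adjusted p = 5.26e-22). Between early and late mouse gastruloids 4 of the 14 tested rose and 2 fell. Of all tested genes, 20.1% were called higher and 19.1% lower in this mouse step. The median of the mouse list was -0.10, against -0.03 over all genes.

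The protein-coding genes whose log2 CPM ran most like each member over the 10 human and the 8 mouse samples were ranked by the smaller of the 2 Pearson correlations, as a description over groups of 2 samples that share libraries. For CCND2 they were SH3BGRL (0.99), WASF1 (0.98) and TRIB2 (0.98). For CCND3 they were WDR1 (0.96), ATP8B2 (0.96) and SF3A2 (0.95), and for CCND1 NOTCH1 (0.94) and SLC50A1 (0.94). CCNE1 ran with UTP4 (0.98), PSMD6 (0.98) and NOC2L (0.98), and CCNE2 with PABIR1 (0.94), HUNK (0.90) and PDZRN3 (0.87). CDK6 had the weakest likeness of the cyclins and kinase, with EOGT (0.89), CACHD1 (0.84) and RRAGD (0.82). CDKN1A ran with KAZN (0.94), NDEL1 (0.91) and MAP3K2 (0.91), CDKN1B with LRRC41 (0.94), TNRC18 (0.92) and SNX6 (0.92), CDKN2C with ARMH3 (0.88), UQCRB (0.87) and ADCK5 (0.86), and RB1 with MAPK4 (0.93) and PABIR2 (0.89).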

How the data were processed

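RNA-seq was read from gene-level read counts, which the authors deposited as 1 table per species with a gene length column. Per the labels and the study's methods, RNA was extracted with the Qiagen AllPrep kit, libraries were made with the NEBNext Ultra II kit and sequenced on a NextSeq instrument. The study names more than 1 read length, and both paired-end and single-end trimming. The sources used here do not say which samples had which. Per the labels, the processing tools were bcl2fastq 2.20, Trimmomatic 0.39, STAR and featureCounts. Versions of STAR and featureCounts and the strand setting were not given in the sources used here. With default settings reads that overlap 2 genes are not counted, which lowers genes that share exons (CCNE2 37.1% of exon bases, Ccnd1 23.4%, Ccne2 17.4%, Rb1 14.9%, Cdkn2c 12.7%, CCND2 12.5%, CCND1 10.4%).

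Counts were used as deposited. Genes were filtered with filterByExpr, leaving 18300 human and 15003 mouse genes, scaled by TMM and fitted by edgeR 4.0.16 (R 4.3.3), 1 fit of all groups per species, with the quasi-likelihood test and Benjamini-Hochberg adjustment over all tested genes, two-sided. The biological coefficient of variation was 8.18% in human and 4.30% in mouse. A call needed adjusted p below 0.05 together with a log2 change beyond 1 in size. Differences between species were interaction contrasts over 14006 tested genes of the 15370 matched by symbol. They came from 1 joint fit of all 18 samples with its own scaling. They therefore do not equal the human change minus the mouse change of the fits per species. TPM used the deposited lengths, which cover all exons of a gene. A floor of 3 counts per library covers counting error only. DESeq2 1.42.0 was an alternative. Scripts were tested on simulated data. The genes and lists were chosen with earlier results of these data known. Genes of a list were named as the largest rise and fall among called genes of at least 5 CPM, with CDK2, CDK4 and CDKN1C always given. Likeness used genes of at least 5 CPM on average in both species. Sequences and coordinates came from GRCh38 and GRCm39 with GENCODE annotation. Some genes and sequences that these rules would name are not reported here.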

Additional observations from a re-analysis of the deposited data

Results flagged for a closer look

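These values are differences between species in the log2 fold change of a matched step, human minus mouse, each past the test of the difference itself in edgeR's quasi-likelihood test on all 18 samples. No explanation was tested. From naive to primed, the difference was -1.61 for CCNE1, 1.28 for CDK6, -2.10 for CDKN1A and -4.68 for CDKN2C. From primed RUES2-GLR ESCs or EpiLCs to early gastruloids it was 1.03 for CCNE1 and 1.38 for CDKN1A. The CCNE1 value lies at the threshold of 1 and was 0.98 to 0.99 without primed RUES2-GLR replicate 1, early RA-gastruloid replicate 1 or mouse early replicate 2. From early to late it was -1.26 for CCND2, -2.36 for CDK6, -2.53 for CDKN1A and 1.66 for RB1. From the starting ESCs to late gastruloids it was -5.84 for CCND2, 1.35 for CCNE1, -1.77 for CDK6, 3.75 for CDKN2C and 1.59 for RB1. Both CDKN2C values rest on human libraries with 0 to 2 counts, and their sizes depend on the fit. In the last step human cells start primed and mouse cells start naive. Media and protocol differed between species in every step. Groups of 2 samples allow no test for a sample that stands apart.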

How the results depend on the processing

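Every called member kept its direction under the alternatives run, which were DESeq2 size factors, upper quartile scaling, no filter on low counts, only the compared groups, DESeq2, and mitochondrial genes left out, the last chosen after seeing the data.
With the adjusted p threshold alone, 5 of the 10 genes passed between primed H9 and RUES2-GLR ESCs, 6 from RUES2-GLR to early and 5 from early to late RA-gastruloids. In mouse 8 passed from naive to EpiLC, 8 from EpiLC to early, 8 from early to late, 8 from naive to early and 9 from naive to late. Species differences then numbered 8, 5, 8 and 8 in the 4 steps. From EpiLC to early gastruloids 2 genes were called in place of 1 with DESeq2 size factors, with upper quartile scaling and with DESeq2, since Ccne1 passed.
Small uncalled values changed sign. CDKN1B between the primed lines was 0.072 with DESeq2 size factors, 0.11 with upper quartile scaling, 0.11 with only the compared groups, 0.072 with DESeq2 and 0.074 without mitochondrial genes. RB1 from early to late RA-gastruloids was -0.012, -0.0092 and -0.0083 with DESeq2 size factors, the compared groups and DESeq2. Cdkn2c from EpiLC to early was 0.012 without the filter, and the species difference of CDKN1A from starting ESCs to late was -0.051 with upper quartile scaling. CDKN1C between primed RUES2-GLR ESCs and early RA-gastruloids was -0.048, -0.016 and -0.0093 with upper quartile scaling, the compared groups and without mitochondrial genes. Cdk4 from mouse naive ESCs to EpiLCs was 0.052 with upper quartile scaling, and Cdk2 from early to late mouse gastruloids was -0.0088 with it and -0.049 without the filter. The values of CDKN1C, CDK4 and CDK2 under the alternatives were added after seeing the data. The cause was not tested.
Replicate numbers did not pair the samples: deviations of same-numbered samples correlated at -0.112 to 0.0684 in human and -0.0483 to 0.00806 in mouse. The replicate block changed no call, and Cdkn2c from EpiLC to early became 0.030 under it.
With 1 replicate left out, which leaves a lone sample assumed to vary like the other groups, the genes called numbered 8 to 8 from naive to primed H9, 2 to 3 between primed lines, 3 to 3 from RUES2-GLR to early, 2 to 2 from early to late and 3 to 6 from RUES2-GLR to late. In mouse they numbered 4 to 5 from naive to EpiLC, 1 to 2 from EpiLC to early, 2 to 4 from early to late, 4 to 4 from naive to early and 3 to 5 from naive to late. Species differences numbered 4 to 6, 1 to 3, 4 to 4 and 5 to 6. With a replicate left out, log2 values that changed sign, none of them called in the full data, ranged from -0.14 to 0.061 for CDKN1B from primed H9 to primed RUES2-GLR ESCs, -0.022 to 0.11 for CDKN1C between primed RUES2-GLR ESCs and early RA-gastruloids, -0.076 to 0.61 for CCNE2 from naive H9 to primed H9 ESCs, -1.72 to 4.12 for CDKN2C from primed H9 to primed RUES2-GLR ESCs, -0.11 to 0.16 for RB1 from early to late RA-gastruloids. They ranged from -0.030 to 0.10 for Ccnd1 from mouse naive ESCs to early gastruloids, -0.43 to 0.042 for Rb1 from mouse naive ESCs to late gastruloids, -0.10 to 0.013 for Cdk4 from mouse naive ESCs to EpiLCs, -0.41 to 0.21 for Cdkn2c from mouse EpiLCs to early gastruloids. They ranged from -0.14 to 0.018 for Ccne2 from mouse EpiLCs to early gastruloids, -0.0021 to 0.074 for Cdk2 from early to late mouse gastruloids, -0.29 to 0.66 for Cdkn2c from early to late mouse gastruloids, -0.0061 to 0.74 for the species difference of CCNE2 from naive to primed. They ranged from -0.26 to 0.23 for the species difference of CDKN1A from starting ESCs to late, -0.30 to 0.037 for the species difference of CCNE2 from early to late, -0.0031 to 0.41 for the species difference of CCND2 from primed to early.
Low counts limit CDKN2C in human, which had 0 counts in the deepest library as well as in the shallowest, and CCNE2 in the shallowest, which held 2.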
